A study of Mus musculus with 8 samples.

Results

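The 42 interferon-stimulated effector genes described here encode antiviral proteins that macrophages make when interferon reaches them. They were chosen by name, as antiviral genes induced by interferon, and genes of the interferon regulatory factor (IRF), STAT, OAS, GBP and RNA sensor families were left out. GENCODE M21 gave a symbol to 55141 of the 55401 genes in the count table. All 42 members were found in it, and all 42 were among the 17470 genes that passed the filter on low counts and were tested. GENCODE M21 lists Mx2 as a polymorphic pseudogene and the other members as protein-coding genes.

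The RNA came from macrophages grown in culture from mouse bone marrow (BMDM). All mice carried Mettl3 alleles flanked by loxP sites (Mettl3fl/fl). METTL3 is the enzyme that writes N6-methyladenosine on mRNA. Cells of Mettl3fl/fl mice are called WT here, and cells of Lyz2-Cre-Mettl3fl/fl mice, in which the myeloid Lyz2 promoter drives Cre recombinase, are called KO. Cells received PBS, or 50 ng/ml LPS overnight followed by 10 µM nigericin. The sample labels give 3 h of nigericin, and the series text gives 1 h or 3 h. LPS engages TLR4, and nigericin lets potassium out of the cell and so activates the NLRP3 inflammasome. Each of the 4 groups (WT or KO, PBS or stimulated) had 2 libraries. LPS and nigericin were always given together, so their effects cannot be told apart, and neither can those of Cre and of Mettl3 loss. No label names separate animals or cultures, so p-values measure only how far the libraries of a group differ, which may be technical.

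Interferons bind receptors that activate the kinases JAK1 and TYK2, or JAK1 and JAK2 for interferon-gamma, and these phosphorylate STAT proteins. STAT proteins join IRF9 in the complex ISGF3, which binds a short promoter element named ISRE (interferon-stimulated response element). Interferon-gamma acts mainly through another, the GAS element. In macrophages, LPS acts through TLR4 and the adaptor TRIF to induce interferon-beta, which then acts back on the same cells.

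The promoter table from RefSeq (build GRCm38.p6), with 250 bases before and 50 bases after each start site, held 34 of the 42 members. Mx1, Mx2, Usp18, Parp9, Parp14, Ifi27l2a, Rtp4 and Tor3a had no entry. The ISRE was searched on both strands as GAAA, any 2 bases and GAAA, and overlapping matches were kept. A gene was counted if any of its start sites had a match, and 7 members had more than 1 start site. The ISRE occurred in 13 of 34 members (38.2%), against 1079 of the 27025 genes of the table (3.99%). The 13 were Bst2, Ifit1, Ifit3, Ifit3b, Ifitm3, Isg15, Lgals9, Phf11b, Rsad2, Tdrd7, Trim21, Trim30a and Trim30d. Among OAS, GBP and RNA sensor genes, which are not members, the ISRE occurred in 11 of 14 (78.6%). Within only the 250 bases before the start it occurred in 11 of 34 members (32.4%), 8 of these 14 genes (57.1%) and 3.46% of all genes. The GAS element TTCNNNGAA occurred in 5 of 34 members (14.7%) against 9.55% of all genes. A kB element of NF-kB (GGGA, any base, TTTCC) occurred in 0 of 34 against 0.466%. With so low a share over all genes, 34 members are too few for this 0 to show that kB sites are absent. A match is a run of letters and not a measured binding site. The members changed together after stimulation, and 7 of their promoter windows are shown, all upstream of the start site and read 5′ to 3′ on the strand of the gene, with ISRE matches of either strand in capitals. Isg15, with 3 overlapping matches, had the largest rise of the members in KO, and Ifit1, Rsad2 and Bst2 stand for the IFIT, replication and membrane groups. Ifit3 and Ifit3b are printed because their windows were identical, and Trim25, with no match, because it was the 1 member that did not pass the test after stimulation. The windows are chr4:156200836-156200935 (minus strand) for Isg15, chr19:34640749-34640848 (plus) for Ifit1, chr19:34583345-34583444 (plus) for Ifit3 and chr19:34607741-34607840 (plus) for Ifit3b. They are chr12:26456518-26456617 (minus) for Rsad2, chr8:71537545-71537644 (minus) for Bst2 and chr11:88999303-88999402 (plus) for Trim25.
Isg15: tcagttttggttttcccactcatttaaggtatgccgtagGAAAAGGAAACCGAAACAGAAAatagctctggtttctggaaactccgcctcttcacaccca
Ifit1: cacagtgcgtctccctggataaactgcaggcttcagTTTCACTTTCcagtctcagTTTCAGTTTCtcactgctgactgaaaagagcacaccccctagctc
Ifit3: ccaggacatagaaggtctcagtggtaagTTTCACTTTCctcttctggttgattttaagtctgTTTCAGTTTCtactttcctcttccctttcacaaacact
Ifit3b: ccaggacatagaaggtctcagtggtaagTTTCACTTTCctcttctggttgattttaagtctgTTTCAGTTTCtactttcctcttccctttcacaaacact
Rsad2: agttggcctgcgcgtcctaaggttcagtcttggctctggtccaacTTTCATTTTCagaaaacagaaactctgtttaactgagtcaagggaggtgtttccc
Bst2: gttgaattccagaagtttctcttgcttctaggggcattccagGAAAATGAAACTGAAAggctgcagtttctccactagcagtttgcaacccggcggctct
Trim25: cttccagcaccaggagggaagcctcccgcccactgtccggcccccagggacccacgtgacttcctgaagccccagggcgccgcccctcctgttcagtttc

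The libraries held 55032057 to 65487739 counts, and levels are counts scaled to a common TMM-adjusted library size (CPM). Mettl3 was lower in both KO libraries than in both WT libraries with either treatment, by -1.17 ± 0.14 (SE) log2 units with PBS and -1.61 ± 0.14 after stimulation, on counts that cover the whole gene. All 8 macrophage markers were present, among them Csf1r and Adgre1. Lyz2, the locus of the Cre driver, was lower in KO by -0.99 ± 0.06 with PBS. The summed level of 6 plasmacytoid dendritic cell markers was 40.5 to 74.4 CPM, most of it Tcf4 (33.8 to 73.8 CPM). Klk1 was at 0 in all libraries, and Siglech, Ccr9 and Spib were at most 0.98 CPM. Cox6a2 stood at 0.31 to 0.72 CPM with PBS and at 5.19 to 14.0 CPM after stimulation. The sum of 9 neutrophil markers was 4.04 to 6.18 CPM with PBS and 28.1 to 35.5 CPM after stimulation. Ly6g and Retnlg were at 0 in all libraries. Of the 6 neutrophil markers tested, S100a8 and Camp rose in both genotypes beside the members. Another 3 (Ltf, Ngp and Mpo) were lower after stimulation in both genotypes and were not called. S100a8 alone stood at 26.3 to 32.1 CPM after stimulation, most of the sum. The part of these cells in the responses was not tested.

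In resting cells the members differed widely in level. Per kb of exon, Ifitm3, which blocks fusion of viruses in endosomes, was the highest member in WT with PBS at 355 CPM per kb, followed by Lgals3bp at 188 and Bst2 at 97.1. At the other end stood Isg20 (1.46), Mx2 (0.67) and Ifi44 (0.33). The median member was at 7.24 CPM per kb in WT and 9.55 in KO. Of the 41 pairs of neighbours in this order, 29 overlapped between their libraries in WT and 30 in KO. After stimulation the order was led by Ifitm3 (3013 CPM per kb in WT, 3115 in KO), with Bst2, Lgals3bp and Isg15 next in WT, and ended with Pml and Trim21 in WT. In that condition 25 neighbour pairs overlapped in WT and 13 in KO. Together the 42 genes took 0.239 and 0.276% of the counts in the WT PBS libraries and 0.323 and 0.349% in KO PBS. Stimulation brought this share to 1.62% in both WT libraries and to 1.71 and 1.73% in KO. These are shares of raw counts, without the TMM factors. On the TMM-adjusted library size WT was the higher, with the median member at 230 and 235 CPM in stimulated WT and 225 and 227 in stimulated KO. Lgals3bp alone held 33970 and 36396 of the 149001 and 179223 member counts in WT PBS. In KO PBS it held 57833 and 65700 of 177562 and 207759.

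**Figure D1:**
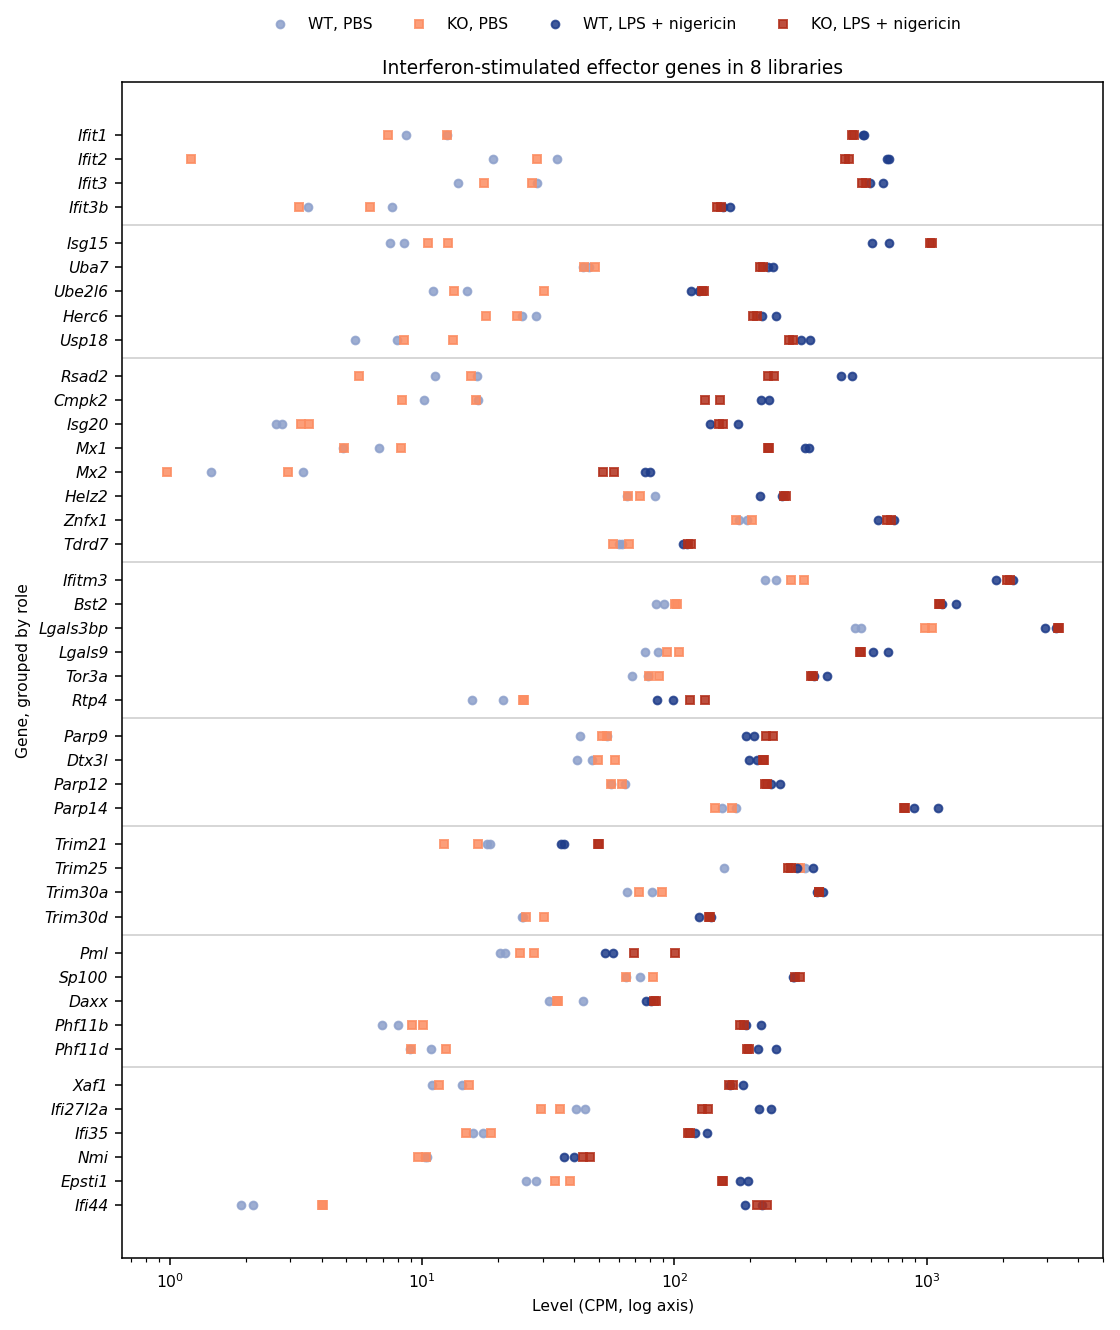
Level of each of the 42 genes (CPM, log axis) in the 8 libraries, grouped by role, with circles for WT, squares for KO, light colours for PBS and dark colours for LPS and nigericin. For 41 genes the stimulated libraries lie above the PBS libraries of the same genotype, Trim25 is the exception, and Ifit2 in KO PBS library 1 stands at 1.21 CPM.

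The first comparison asked how stimulation changed the members in each genotype. In WT, 41 of 42 rose and 0 fell, while 20.6% of all tested genes rose and 20.0% fell. In KO, 41 rose and 0 fell, against 20.2% and 19.0% of all tested genes. The member that did not pass was Trim25 in both genotypes. None fell at an unadjusted p under 0.05 in edgeR's test (24.4% of all tested genes in WT, 23.3% in KO), by DESeq2 (21.5% and 20.1%) or by limma-voom (20.4% and 19.7%). The median log2 difference of the members was 2.87 in WT and 2.42 in KO, where the medians over all genes were -0.01 and -0.03. Without the composition factor in the scaling the same medians over all genes were -0.197 and -0.112, those of the members 2.68 and 2.34, and 41 members rose in each genotype. Among the 41, the adjusted p was largest for Ifit2, at 0.0172 in WT and 0.0148 in KO, and without it at 0.0016 (Trim21 in WT) and 0.00146 (Ube2l6 in KO). In bulk RNA a change in the number of expressing cells and a change in RNA per cell cannot be told apart.

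The 4 IFIT genes encode related proteins, of which IFIT1 binds foreign RNA ends and blocks translation of that RNA. The 4 genes lie within 99316 bases of chromosome 19 (34550694 to 34650009, GRCm38). Ifit1 stood at 8.59 and 12.6 CPM in WT PBS, 7.34 and 12.5 in KO PBS, 559 and 566 in stimulated WT and 508 and 517 in stimulated KO. Both genotypes started from overlapping levels, and the rise was 5.73 ± 0.31 log2 units in WT and 5.69 ± 0.31 in KO. Ifit3 rose by 4.90 ± 0.39 and 4.66 ± 0.38, from 13.8 and 28.5 CPM in WT PBS and 17.5 and 27.2 in KO PBS. Ifit3 and Ifit3b are near copies: 51.2% of the 50-base stretches of Ifit3 transcripts also occur in Ifit3b, so the split of counts between them is uncertain.

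Ifit2 varied most between libraries of a group. Its level was 19.1 and 34.1 CPM in WT PBS and 707 and 697 in stimulated WT. In KO it was 473 and 490 CPM after stimulation, but 1.21 CPM (71 counts) in PBS library 1 against 28.6 CPM (1787 counts) in library 2. The log2 ratio of library 2 to library 1 in KO PBS was 4.46 for Ifit2, 0.76 for Ifit1, 0.63 for Ifit3 and 0.90 for Ifit3b. The rise in WT was 4.72 ± 1.17, with the widest error of the members, and lost its call without either WT PBS library (adjusted p up to 0.0994).

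ISG15 is a ubiquitin-like protein that is attached to other proteins by the enzymes UBA7 and UBE2L6 and a HERC ligase (HERC6 in mouse), and removed by USP18. Isg15 stood at 7.46 and 8.48 CPM in WT PBS, 10.6 and 12.7 in KO PBS, 606 and 708 in stimulated WT and 1028 and 1050 in stimulated KO. Each KO library was above each WT library of the same treatment. Its rise of 6.36 ± 0.15 log2 units (82.4-fold) in WT and 6.48 ± 0.15 (89.4-fold) in KO was the second largest of the members in WT and the largest in KO. Usp18, which also blunts signalling at the interferon receptor, rose by 5.63 ± 0.28 in WT (from 5.43 and 7.96 to 318 and 344 CPM) and by 4.74 ± 0.27 in KO (from 8.44 and 13.3 to 296 and 284 CPM). The conjugating enzymes rose less, Uba7 by 2.43 ± 0.08 and 2.27 ± 0.08, Ube2l6 by 3.21 ± 0.37 and 2.57 ± 0.36, and Herc6 by 3.17 ± 0.15 and 3.33 ± 0.15, in WT and KO. The KO PBS libraries of Ube2l6 were far apart, at 30.5 and 13.3 CPM.

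Members that act on nucleic acids or on replication spanned the widest range of responses. RSAD2 (viperin) turns CTP into a nucleotide that stops viral polymerases, and CMPK2 is a mitochondrial nucleotide kinase encoded next to it, with 12752 bases between the start sites on chromosome 12. Rsad2 stood at 11.3 and 16.5 CPM in WT PBS, 5.63 and 15.7 in KO PBS, 507 and 459 in stimulated WT and 249 and 235 in stimulated KO. Its rise was 5.12 ± 0.48 in WT and 4.50 ± 0.47 in KO, and that of Cmpk2 was 4.09 ± 0.37 and 3.53 ± 0.36. The exonuclease gene Isg20 rose by 5.87 ± 0.15 and 5.48 ± 0.15, from under 4 CPM in every PBS library. The dynamin-like GTPase genes Mx1 and Mx2 rose by 5.85 ± 0.28 and 5.01 ± 0.56 in WT and by 5.16 ± 0.28 and 4.80 ± 0.56 in KO. The helicase genes Helz2 and Znfx1 had higher resting levels and rose by 1.71 ± 0.15 and 1.89 ± 0.10 in WT and by 1.98 ± 0.15 and 1.91 ± 0.10 in KO. Tdrd7, which restrains autophagy-dependent virus replication, had the smallest called rise, 0.85 ± 0.09 in WT (60.5 and 62.0 to 113 and 108 CPM) and 0.90 ± 0.09 in KO. Znfx1 overlaps the noncoding gene Zfas1 on the other strand, and the sources do not say whether counting used strand.

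All 6 members at membranes or in the secretory path rose in both genotypes. Bst2 (tetherin), which holds budding virions at the cell surface, stood at 84.6 and 90.8 CPM in WT PBS, 100.2 and 102 in KO PBS, 1151 and 1311 in stimulated WT and 1129 and 1119 in stimulated KO. The rise was 3.81 ± 0.09 in WT and 3.48 ± 0.08 in KO, and the stimulated WT libraries were just above those of KO. Ifitm3 rose by 3.08 ± 0.11 and 2.78 ± 0.10, the lectin gene Lgals9 by 3.02 ± 0.10 and 2.46 ± 0.10, and the torsin ATPase gene Tor3a by 2.38 ± 0.10 and 2.08 ± 0.10. Rtp4, a negative regulator of interferon induction, rose by 2.32 ± 0.16 and 2.30 ± 0.16, and overlaps Masp1 on the other strand.

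ADP-ribosyltransferase genes gave a narrow band of rises. Parp14, whose product is a coactivator of STAT6, rose by 2.61 ± 0.13 in WT and 2.38 ± 0.13 in KO. Parp12 rose by 2.07 ± 0.09 and 1.96 ± 0.09. PARP9 and the ubiquitin ligase DTX3L form a complex, and their genes overlap head to head by 682 bases. Parp9 rose by 2.05 ± 0.12 and 2.17 ± 0.12, and Dtx3l by 2.22 ± 0.11 and 2.06 ± 0.11.

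Of the 4 tripartite motif (TRIM) ubiquitin ligase genes, 3 rose. Trim30a and Trim30d rose by 2.37 ± 0.14 and 2.41 ± 0.10 in WT and by 2.21 ± 0.14 and 2.29 ± 0.10 in KO. Trim21, a cytosolic antibody receptor, stood at 18.5 and 18.1 CPM in WT PBS, 16.6 and 12.2 in KO PBS, 35.6 and 36.6 in stimulated WT and 49.9 and 50.4 in stimulated KO. Its PBS libraries were higher in WT and its stimulated libraries higher in KO, with rises of 0.98 ± 0.14 and 1.80 ± 0.14. Trim25, which activates the RNA sensor RIG-I, stood at 158 and 330 CPM in WT PBS, 315 and 309 in KO PBS, 355 and 307 in stimulated WT and 282 and 289 in stimulated KO. WT PBS library 1 was the low one of the 8. The difference was 0.44 ± 0.30 in WT (adjusted p = 0.281) and -0.13 ± 0.30 in KO (adjusted p = 0.779). Without WT PBS library 2 it was 1.07 in WT with an adjusted p of 0.00111, so the WT value rests on 1 library.

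The 5 nuclear body and chromatin members all rose. Phf11b and Phf11d, paralogs in which 15.6% of the 50-base stretches of Phf11b also occur in Phf11d, rose by 4.79 ± 0.12 and 4.56 ± 0.19 in WT and by 4.27 ± 0.12 and 4.20 ± 0.19 in KO. The PML body genes rose less: Sp100 by 2.11 ± 0.13 and 2.08 ± 0.13, Pml by 1.41 ± 0.17 and 1.70 ± 0.18, and the histone chaperone gene Daxx by 1.07 ± 0.14 and 1.28 ± 0.14, in WT and KO.

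Among the 6 members tied to signalling and cell death, Ifi44 had the largest rise of all members in WT. It stood at 1.90 and 2.14 CPM in WT PBS, 4.0 and 4.04 in KO PBS, 190 and 222 in stimulated WT and 213 and 232 in stimulated KO. The genotypes were apart with PBS and overlapped after stimulation. The rise was 6.67 ± 0.13 (102-fold) in WT and 5.79 ± 0.12 (55.3-fold) in KO. Xaf1, an antagonist of the caspase inhibitor XIAP, rose by 3.80 ± 0.18 and 3.64 ± 0.18. Ifi35 and Nmi, whose products bind each other, rose by 2.94 ± 0.13 and 1.89 ± 0.10 in WT and by 2.77 ± 0.13 and 2.17 ± 0.10 in KO. Epsti1 rose by 2.80 ± 0.10 and 2.10 ± 0.10, and Ifi27l2a by 2.44 ± 0.11 and 2.04 ± 0.11.

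**Figure D2:**
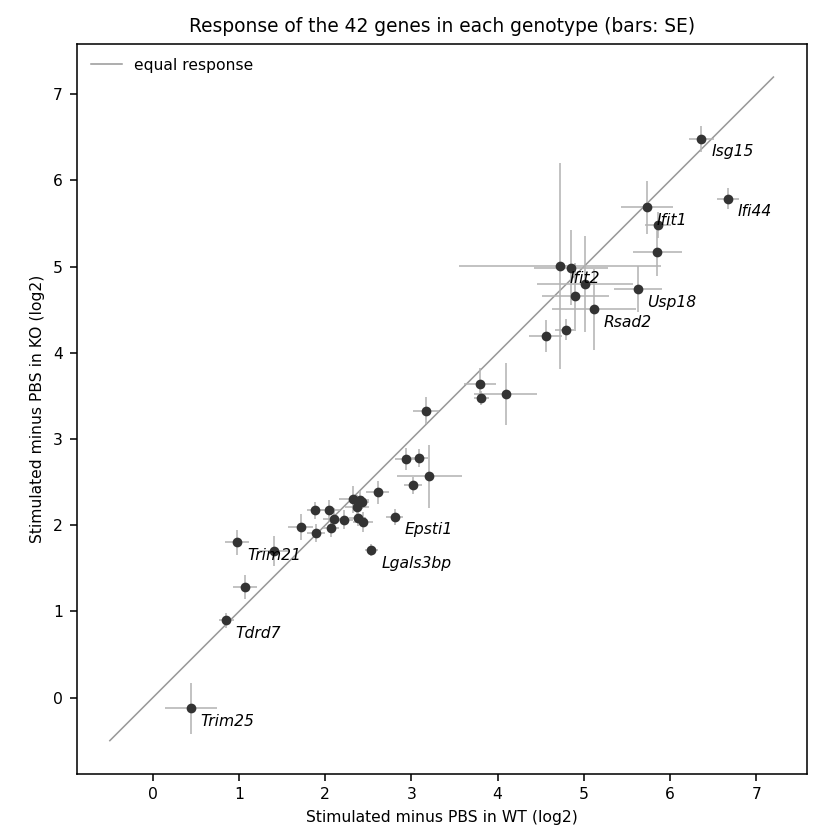
Log2 difference between stimulated and PBS libraries of each of the 42 genes in WT (horizontal) and KO (vertical), with standard errors as bars and the line of equal response. Isg15 and Ifi44 lie farthest out, Trim25 lies near 0 in both, and 30 of 42 genes lie below the line.

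Members with an ISRE match had a median rise of 3.81 in WT and 3.48 in KO (13 genes), and those of the table without one 2.54 and 2.17 (21 genes). The ranges overlapped. Ifi44, with no match in its window, rose by 6.67 in WT. Tdrd7, with a match at only 1 of its start sites, rose by 0.85. For this split no test was made, since genes are not replicates.

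The second comparison asked how KO differed from WT. With PBS, 2 of the 42 members were higher in KO and 0 were lower, against 1.20% and 0.355% of all tested genes. At an unadjusted p under 0.05 in edgeR's test 12 were higher and 3 lower, against 8.68% and 6.71% of all tested genes. DESeq2 called 4 members higher and 1 lower (Ifi27l2a), against 5.01% of all genes in either direction and 1.74% lower. Limma-voom called 1 higher and 0 lower, against 1.87% in either direction and 0.595% lower. Lgals3bp, a secreted glycoprotein that binds galectins, stood at 521 and 547 CPM in WT and at 984.5 and 1052 CPM in KO, apart by 0.93 ± 0.07 log2 units (1.91-fold, adjusted p = 0.00249). It was called under each alternative tried. Ifi44 was higher by 0.99 ± 0.11 (1.99-fold, adjusted p = 0.0132) on levels under 5 CPM. That call was lost with limma-voom, with only the PBS groups in the fit, and without any 1 of the 4 PBS libraries (adjusted p up to 0.126). Isg15 (0.54 ± 0.12, adjusted p = 0.0974) and Epsti1 (0.42 ± 0.09, adjusted p = 0.0938) missed the threshold. With the replicate number as a block Isg15 passed it (adjusted p = 0.0437). Isg15 and Epsti1 both passed with DESeq2, and Epsti1 passed with library size alone. The summed level of 6 fibroblast markers was also higher in KO, at 271 and 289 against 176 and 198 CPM with PBS (2 of 6 called), and at 339 and 303 against 121 and 120 CPM after stimulation (6 of 6 called). The summed level of 6 B and plasma cell markers was 51.8 and 53.4 CPM in WT PBS, 30.2 and 37.9 in KO PBS, 5.49 and 7.69 in stimulated WT and 16.1 and 14.8 in stimulated KO. Most of this sum was Ighm, which was lower in KO PBS (28.2 and 35.8 CPM) than in WT PBS (51.5 and 53.0 CPM) and was not called there. Of the 3 B and plasma cell markers that were tested, 1 was called higher in KO with PBS and 3 after stimulation. The 1 with PBS was Jchain, 6.97-fold, at 0.18 and 0.33 CPM in WT and 1.87 and 1.75 in KO. The part of either marker set in the genotype differences of the members was not tested.

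Without regard to a test, both KO PBS libraries lay above both WT PBS libraries for 15 members (35.7%) and below them for 3 (7.14%), where 24.6% and 24.0% of all tested genes did so. The 15 included all 6 membrane and secretory members. Median differences of the members were small, 0.10 overall against 0.00 for all genes, and ranged from -0.05 to 0.28 when 1 library at a time was left out. The 3 members below were Herc6 (-0.35 ± 0.14, adjusted p = 0.314), Trim21 (-0.35 ± 0.14, adjusted p = 0.309) and Ifi27l2a (-0.39 ± 0.11, adjusted p = 0.163).

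After stimulation, 1 member was higher and 1 lower in KO, against 2.91% and 2.01% of all tested genes, so the members' share of 2.38% each way was near the background. Isg15 was the higher one, by 0.66 ± 0.12 (1.58-fold, adjusted p = 0.028) on the levels given above. Ifi27l2a, of the IFI27 family of small membrane proteins, was the lower one. It stood at 217 and 243 CPM in WT and 129 and 136 CPM in KO, a difference of -0.79 ± 0.11 (adjusted p = 0.0121). Isg15 lost its call without any 1 of the 4 stimulated libraries (adjusted p up to 0.136), and Ifi27l2a without WT library 2 or either KO library (up to 0.101). Both directions were kept in those fits.

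Rsad2 had the largest difference of the members after stimulation, -0.996 ± 0.41, and missed the threshold (adjusted p = 0.243) although both KO libraries lay well below both WT libraries. Its KO PBS libraries were far apart, and it passed in fits without either of them (adjusted p = 0.0458 and 0.0467). With only the stimulated groups in the fit it passed (-0.98, adjusted p = 0.0179), as did Cmpk2 (-0.66, 0.0397), Mx1 (-0.49, 0.0295) and Ifit2 (-0.52, 0.0263). Stimulated levels of Cmpk2 were 220 and 236 CPM in WT and 152 and 133 in KO, and those of Mx1 were 330 and 341 in WT and 237 and 234 in KO. Pml (0.62 ± 0.17, adjusted p = 0.0974) and Trim21 (0.47 ± 0.14, adjusted p = 0.117) were higher in KO in both libraries and were not called in the main fit. Both passed with DESeq2 (0.63 for Pml and 0.48 for Trim21), and Pml also passed with library size alone (0.76).

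Stimulated libraries did not overlap between genotypes for 35 members, with KO higher for 13 (31.0%) and lower for 22 (52.4%), where 25.0% and 25.1% of all tested genes did so. All 4 IFIT genes had lower KO libraries, and none of the 4 was called. The median over members was -0.11 against -0.0045 for all genes. With library size alone as scaling, these medians were 0.03 and 0.13, so the members lay below the median of all genes under either scaling while the sign of their own median depended on it.

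**Figure D3:**
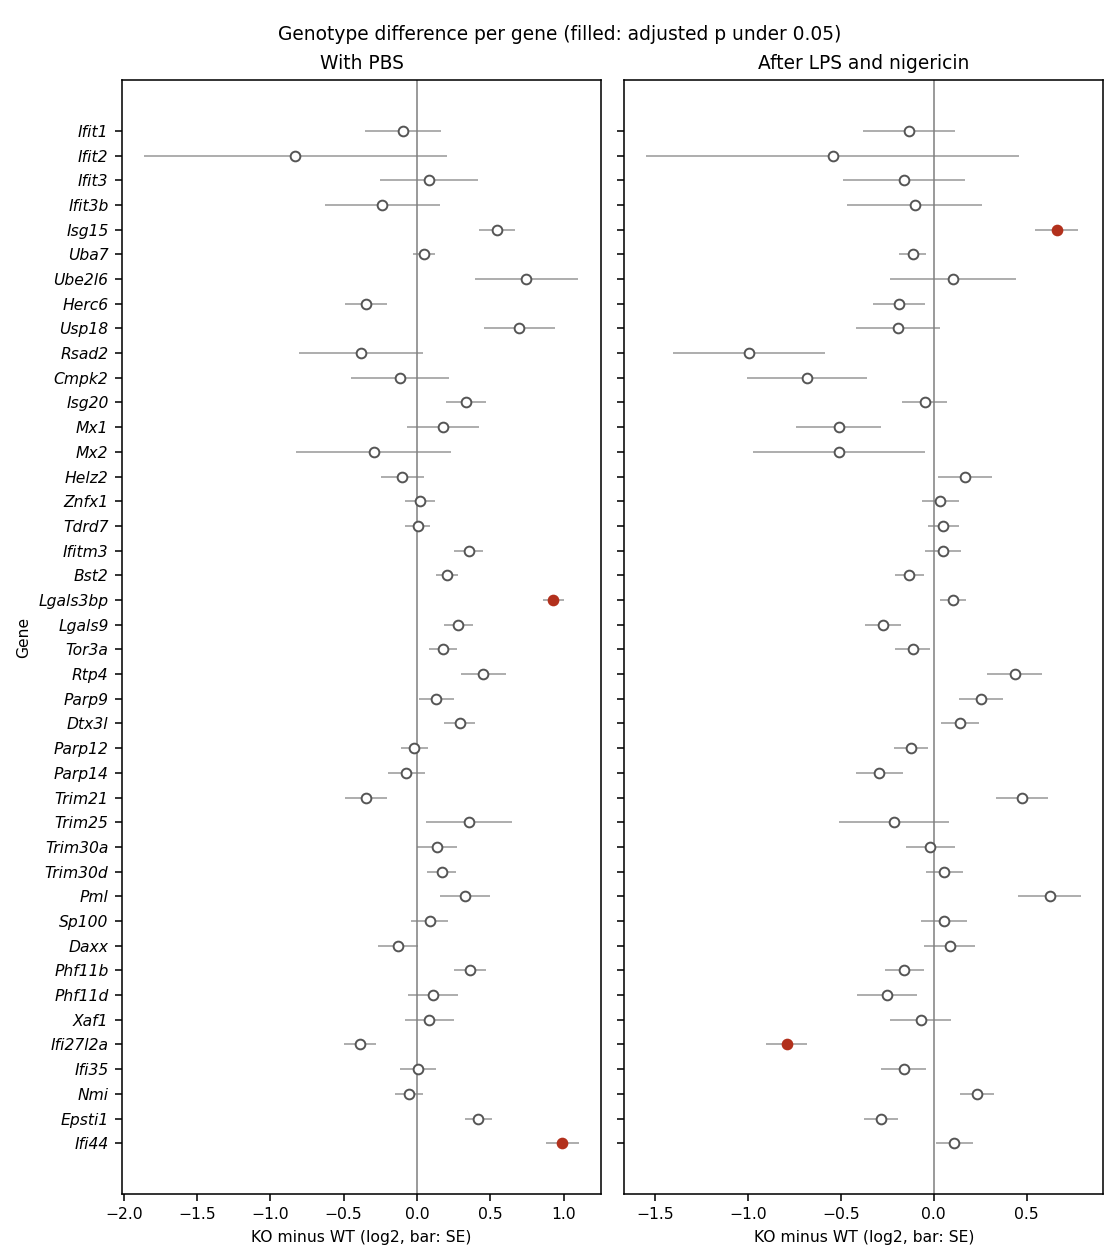
Log2 difference between KO and WT for each of the 42 genes with PBS (left) and after stimulation (right), with standard errors as bars. Filled points passed an adjusted p of 0.05: Lgals3bp and Ifi44 with PBS, Isg15 and Ifi27l2a after stimulation.

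**Figure D4:**
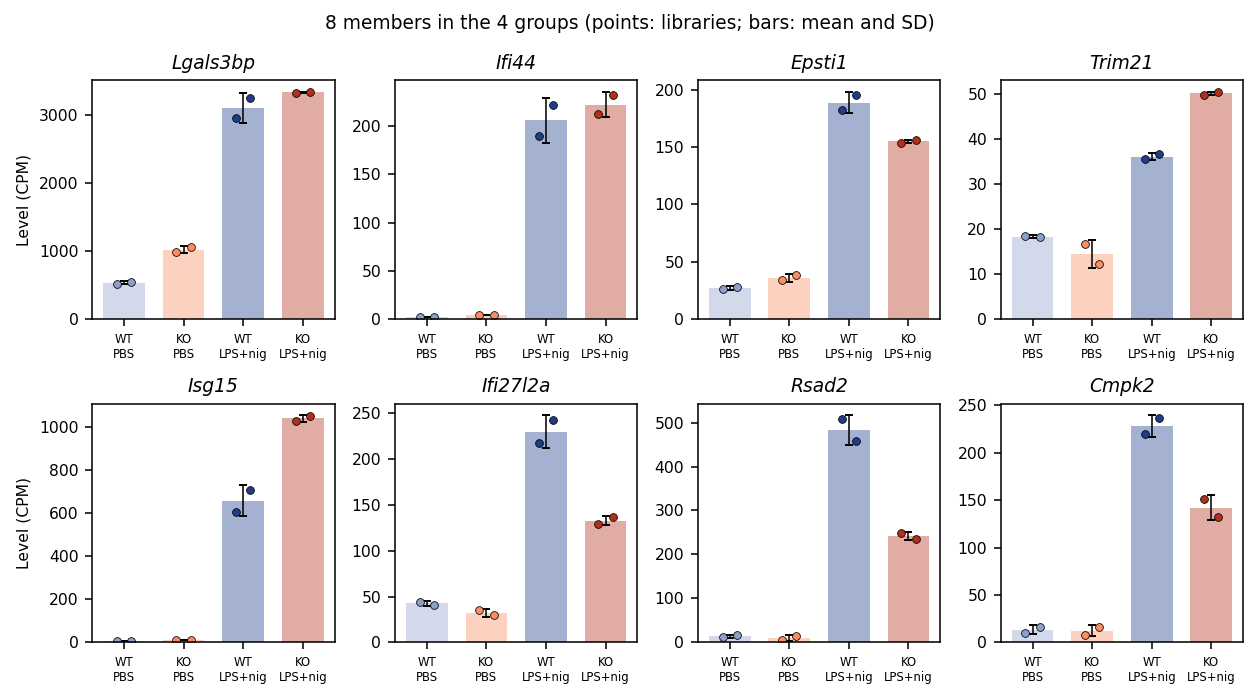
Level (CPM, linear axis from 0) of 8 members in the 4 groups, with points for libraries and bars for mean and SD (n = 2). Lgals3bp and Ifi44 are called between genotypes with PBS, and Isg15 and Ifi27l2a after stimulation. The stimulated libraries of Trim21, Rsad2, Cmpk2 and Epsti1 do not overlap between genotypes, and none of these 4 passed the test.

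The third comparison asked whether the response to stimulation differed between genotypes, as an interaction term. Of the 42 members 1 had a smaller response in KO and 0 a larger one, against 0.395% and 0.103% of all tested genes. At an unadjusted p under 0.05 in edgeR's test 8 were smaller and 1 larger, against 5.91% and 4.80% of all tested genes. DESeq2 called 5 members, against 2.78% of all genes. Of these, 1 was larger (Trim21, with 1.10% of all genes larger) and 4 smaller (Lgals3bp, Lgals9, Epsti1 and Ifi44). Limma-voom called 0 larger (0.0973%) and 1 smaller, Lgals3bp, against 0.481% of all genes in either direction. The member with the smaller response in edgeR's test was Lgals3bp, which rose by 2.54 ± 0.07 in WT and 1.71 ± 0.07 in KO, a difference of -0.83 ± 0.10 (adjusted p = 0.026). Its stimulated levels were 2945 and 3252 CPM in WT and 3323 and 3336 in KO, so the groups were closer after stimulation than with PBS. The call was lost in 7 of the 8 fits that left out 1 library, all but the one without stimulated WT library 1 (adjusted p up to 0.13).

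Ifi44 (-0.88 ± 0.15, adjusted p = 0.0847) and Epsti1 (-0.71 ± 0.13, adjusted p = 0.0893) had the next smallest adjusted p-values, followed by Trim21, whose response was larger in KO (0.82 ± 0.20, adjusted p = 0.181). For 30 of 42 members the estimate lay below 0, with a median of -0.17, where 50.2% of all genes lay below 0. All 6 membrane and secretory members were among the 30, as were 5 of the 6 signalling and cell death members and 2 of the 4 IFIT genes. The estimate includes the PBS difference, in which those 6 membrane and secretory members were higher in KO, so it is not a separate result. Outside the members, 8 of 8 OAS genes and 4 of 8 GBP genes lay below 0. The median of the members was 0.00 without KO PBS library 2 and -0.33 without KO PBS library 1. It was -0.08 without WT PBS library 1 and -0.32 without WT PBS library 2, so its size depended on the PBS libraries of both genotypes. With library size alone as scaling it was -0.06, and that of all genes 0.10.

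Resting levels of the members also differed between the libraries of a group. Library 2 was the higher one for 38 of 42 members in WT PBS and for 34 in KO PBS, where 49.1% and 50.4% of all tested genes were. For 33 members it was higher in both groups, against 28.9% of all genes. A gap of over 0.5 log2 units in both groups was seen for 8 members, Cmpk2, Rsad2, Mx2, Usp18, Ifit1, Ifit2, Ifit3b and Ifit3, and for 2.28% of all genes. After stimulation library 2 was higher for 30 members in WT and 25 in KO, where 51.4% and 50.8% of all tested genes were. The median absolute difference of the members was 0.14 and 0.04 log2 units in WT and KO, against 0.20 and 0.22 with PBS. Over all tested genes it was 0.20 and 0.14 after stimulation, against 0.17 and 0.18 with PBS. These counts were made after the values were seen.

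**Figure D5:**
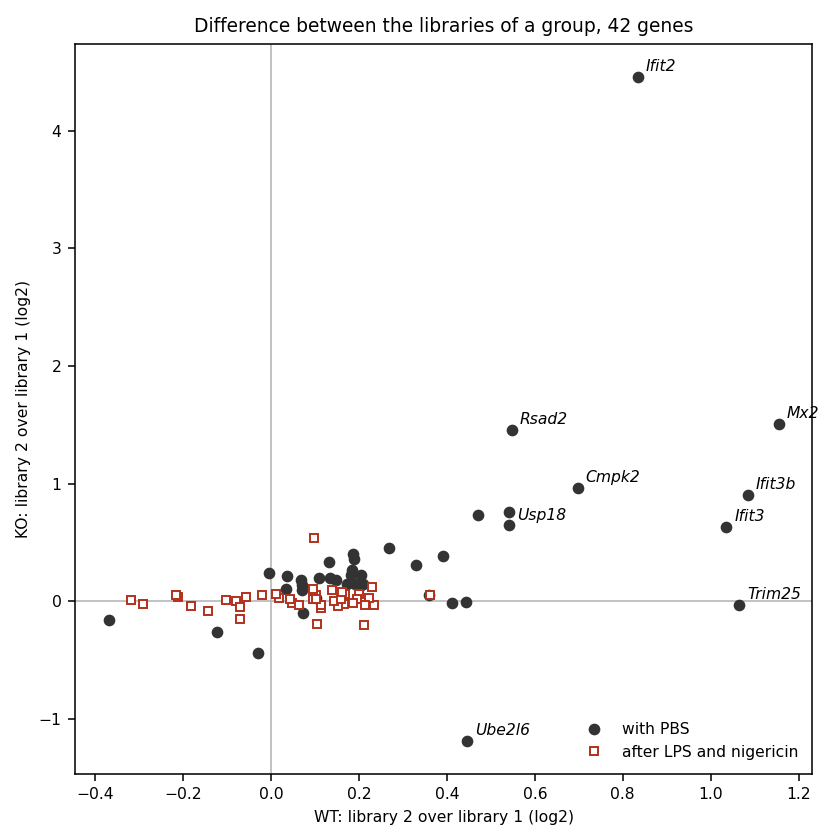
Log2 ratio of library 2 to library 1 for each of the 42 genes in WT (horizontal) and KO (vertical), with filled circles for PBS and open squares for LPS and nigericin. Most PBS points lie above 0 on both axes, Ifit2 is far above the others in KO, and the stimulated points are closer to 0.

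The rest of the pathway was read from lists that hold no member. Of 20 interferon ligand genes, 15 had no count in any library. Ifnb1 had no count with PBS, which allows up to 0.0228 CPM in WT and 0.0248 in KO (3 counts over the group, counting error only), and stood at 0.22 and 0.00 CPM in stimulated WT and 0.14 and 0.18 in stimulated KO. It was not called in either genotype (adjusted p = 0.167 and 0.141). Ifng, which encodes interferon-gamma, had no count with PBS, 0.00 and 0.07 CPM in stimulated WT, and 2.24 and 1.49 CPM in stimulated KO. It rose in KO, at least 75.4-fold (adjusted p = 0.00727), and the genotype difference after stimulation was not called (adjusted p = 0.0649). The summed level of 6 T and NK cell markers was at most 0.204 CPM in any library.

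Of 8 tested receptor and kinase genes, 4 rose and 1 fell in WT, and 4 rose and 2 fell in KO. Jak2, the kinase of the interferon-gamma receptor, rose by 2.64 ± 0.08 and 2.92 ± 0.08, and Ifnar2, a chain of the interferon-alpha and -beta receptor, by 0.98 ± 0.07 and 0.97 ± 0.07. Tyk2 rose by 0.61 ± 0.09 and 0.86 ± 0.09 and the receptor chain gene Ifngr2 by 0.49 ± 0.08 and 0.53 ± 0.08, while Ifngr1 fell by 0.88 ± 0.17 and 0.68 ± 0.17. Jak1 was at -0.20 ± 0.07 in WT (adjusted p = 0.0627) and fell by 0.27 ± 0.07 in KO, and Ifnar1 and Il10rb were not called in either genotype. Of 8 transcription factors 5 rose in each genotype, and 2 fell in KO (Irf5 and Irf8). Irf7, a factor that amplifies interferon production, rose by 5.24 ± 0.11 in WT and 4.34 ± 0.11 in KO. It was higher in KO PBS (41.98 and 43.8 CPM) than in WT PBS (22.9 and 27.6 CPM) by 0.76 ± 0.10 (adjusted p = 0.0167), and its difference of responses, -0.90 ± 0.13, missed the threshold (adjusted p = 0.0558).

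Of 9 genes of the TLR4 arm, 3 rose in WT and 4 in KO. Cd14, a co-receptor for LPS, was lower in KO with PBS (-0.80 ± 0.09, adjusted p = 0.0128) and had a larger response in KO (difference 1.13 ± 0.13, adjusted p = 0.0225). Of 6 inhibitors of the signal, 4 rose and 1 fell in WT, and 5 rose and 1 fell in KO, led by Socs3 (7.01 ± 0.16 and 6.88 ± 0.16). All 8 OAS genes, all 8 GBP genes and all 6 RNA sensor genes rose in both genotypes. With PBS, 3 of the 8 OAS genes were higher in KO, Oas1g (0.43 ± 0.06, adjusted p = 0.03), Oas2 (0.66 ± 0.10, adjusted p = 0.0271) and Oasl1 (0.51 ± 0.08, adjusted p = 0.0336). Oasl1 also had a smaller response in KO (-0.76 ± 0.11, adjusted p = 0.0466).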

How the data were processed

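The deposited table holds whole-number counts per gene in each of the 8 libraries, made by the authors. Per the submitters' processing notes, Trimmomatic, Bowtie2, edgeR and mm10 were used, while the sources used here do not state the counting tool, annotation or use of strand. Counts on paralogs and overlapping genes may be split wrongly.

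Genes were filtered with filterByExpr (minimum count 10, minimum total 15), scaled by TMM and fitted over all 8 libraries with 1 coefficient per group (4 residual degrees of freedom). Adjusted p-values of this main fit are from edgeR's quasi-likelihood F test (edgeR 4.0.16, R 4.3.3). They have Benjamini-Hochberg adjustment over all 17470 tested genes, at 0.05. An adjusted p given for an alternative is from that fit and over the genes tested in it. Fits were tested on simulated data. Standard errors are those of log2 differences. Ratios between libraries used log2(CPM + 0.1). Alternatives were DESeq2 1.42.0, edgeR with DESeq2's size factors or with library size alone, limma-voom (limma 3.58.1), no filter or one of 5 CPM in at least 2 libraries, a fit of only the groups compared, a replicate block, and each library left out. The members, pathway lists and markers were chosen with earlier results of these data known. The text names all members, the tested ligand and receptor genes, and from other lists up to 3 genes with the smallest adjusted p. No column was left unused. GENCODE M21 gave symbols and exon lengths.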

Additional observations from a re-analysis of the deposited data

Results flagged for a closer look

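Lgals3bp responded differently to stimulation in KO and WT by the interaction test of edgeR's quasi-likelihood fit: the response in KO minus that in WT was -0.827 log2 units (adjusted p = 0.026, n = 2 libraries per group). Its PBS level was higher in both KO libraries than in both WT libraries, and its stimulated levels were 1.07-fold apart. The summed fibroblast markers were also higher in KO PBS libraries, and their part in this result was not tested. Groups of 2 libraries are too small to look for a library that stands apart from its group.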

How the results depend on the processing

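The 41 members that rose in each genotype were 40 to 41 in WT and 41 in KO when each library was left out, and 41 in both under each other alternative. Shares in brackets are those of all tested genes called in the same fit. Between genotypes with PBS 2 members passed (1.55%), 5 with DESeq2 (4 higher, 1 lower; 5.01%), 3 with library size alone (1.89%), 1 with limma-voom (1.87%), 1 with only the groups compared (0.275%), and 1 to 2 without each library (0.433 to 1.40%). After stimulation 2 passed (4.92%), 5 with library size alone (4 higher, 1 lower; 7.33%), 4 with DESeq2 (9.47%), 3 with limma-voom (5.39%), 6 with only the groups compared (1 higher, 5 lower; 3.12%), and 0 to 4 without each library (0.842 to 3.21%). For the difference of responses 1 passed (0.498%), 5 with DESeq2 (1 higher, 4 lower; 2.78%) and 0 to 1 without each library (0.108 to 0.534%), and a fit of only the groups compared is the same fit. The median difference after stimulation was -0.108 and 0.032 with library size alone. The median difference of responses was -0.166, and ran from -0.331 to 0.0001 without each library. The causes of these changes were not tested. A longer ISRE, which asks for CT after the second GAAA, matched 8 of 34 members (23.5%) in place of 13 (38.2%). Among the 27025 genes of the promoter table it matched 82 (0.303%) in place of 1079 (3.99%).

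The labels number the libraries 1 and 2 in each group. Deviations of same-numbered libraries from their group means correlated at 0.101 across 17470 genes for both PBS groups and from -0.015 to 0.018 for the other pairs of groups. With the replicate block, 41 members rose in each genotype, 3 passed with PBS (Isg15 in addition; 1.31% of all genes), 2 after stimulation (3.85%) and 1 in the difference of responses (0.343%).

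Depth did not limit detection of the members, which had at least 57 counts in every library. The 2 libraries per group limit the precision.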
